A study of Mus musculus with 2 samples.

Results

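The integrin and laminin genes of C2C12 myotubes were compared between cells given a constitutively active estrogen receptor α and cells given a control vector. The set holds 35 genes, 25 integrins and 10 laminins, out of 19938 genes named on the array. A gene entered by its annotated symbol alone: Itga or Itgb followed only by digits or by a single letter, or Lama, Lamb or Lamc followed only by digits. The symbol rule itself uses no measured value, but the families were chosen with earlier results of these data known. Where a gene had several probe sets, the one with the highest mean of the 2 arrays stood for it. This applied to Itgad only, since 34 of the 35 genes had 1 probe set. The probe sets naming both Itgam and Rpl35, 3 in all, were left out.

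C2C12 cells are mouse myoblasts, an established line whose cells fuse to myotubes once serum is lowered. Cells were grown in 10% fetal bovine serum, kept for 7 days in 2% horse serum and then exposed for 48 h to virus at 30 infectious units per cell. Both groups received an adenovirus, Ad-caERα with the active receptor or Ad-DsRed with the red fluorescent protein DsRed, and there is 1 array for each. With 1 array per vector no test between the vectors exists, so every value below is a difference between 2 arrays, and the spread between cultures is unknown. The labels name no promoter driving either insert, no species or part of the receptor and no share of infected or unfused cells. Esr1, the gene of this receptor, gave a log2 signal of 7.38 with Ad-DsRed and 8.44 with Ad-caERα.

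Integrins are receptors made of an α and a β chain that span the cell membrane and link the matrix outside to the actin skeleton inside. Laminins are trimers of an α, a β and a γ chain and form the sheet of the basement membrane to which muscle fibres attach. In muscle, laminin containing the α2 chain is held by the integrin of the α7 and β1 chains and by dystroglycan. Loss of the laminin α2 or the integrin α7 chain causes muscle disease.

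A gene was called measured when its higher signal passed a detection floor of 5.11 on the log2 scale. That floor is the 95th percentile over the smell and pheromone receptor genes (1210 probe sets). These were assumed to be mostly silent in the cells, which was not tested. By it 27 of the 35 genes were measured, 17 of 25 integrins and 10 of 10 laminins. The 8 that stayed below the floor on both arrays were Itga1, Itga2, Itga8, Itga9, Itgae, Itgal, Itgam and Itgax. All differences below are Ad-caERα minus Ad-DsRed in log2 signal, and signals are not ranked between genes because probe sets differ in brightness.

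No measured integrin or laminin differed by 2-fold or more (0 of 27), a size reached by 0.686% of the 13554 measured genes, 0.59% upwards and 0.0959% downwards. At 1.5-fold, reached by 2.71% of measured genes, 1.82% upwards and 0.885% downwards, 1 member passed, the integrin Itga4, which was lower in Ad-caERα. Of the 27, 7 lay above 0, 19 below and 1 at 0, beside 50.2% above 0 and 48.8% below among all measured genes. The median difference was -0.026 over the 17 integrins and -0.15 over the 10 laminins, beside 0.0017 over all measured genes. Differences larger in size than 0.22, the SD over the receptor probe sets, were found in 7 of the 27, and in 29.1% of all measured genes. The share of members past that size was thus close to the share of all genes. In these bulk cultures fewer cells of a type and less RNA per cell cannot be told apart.

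**Figure D1:**
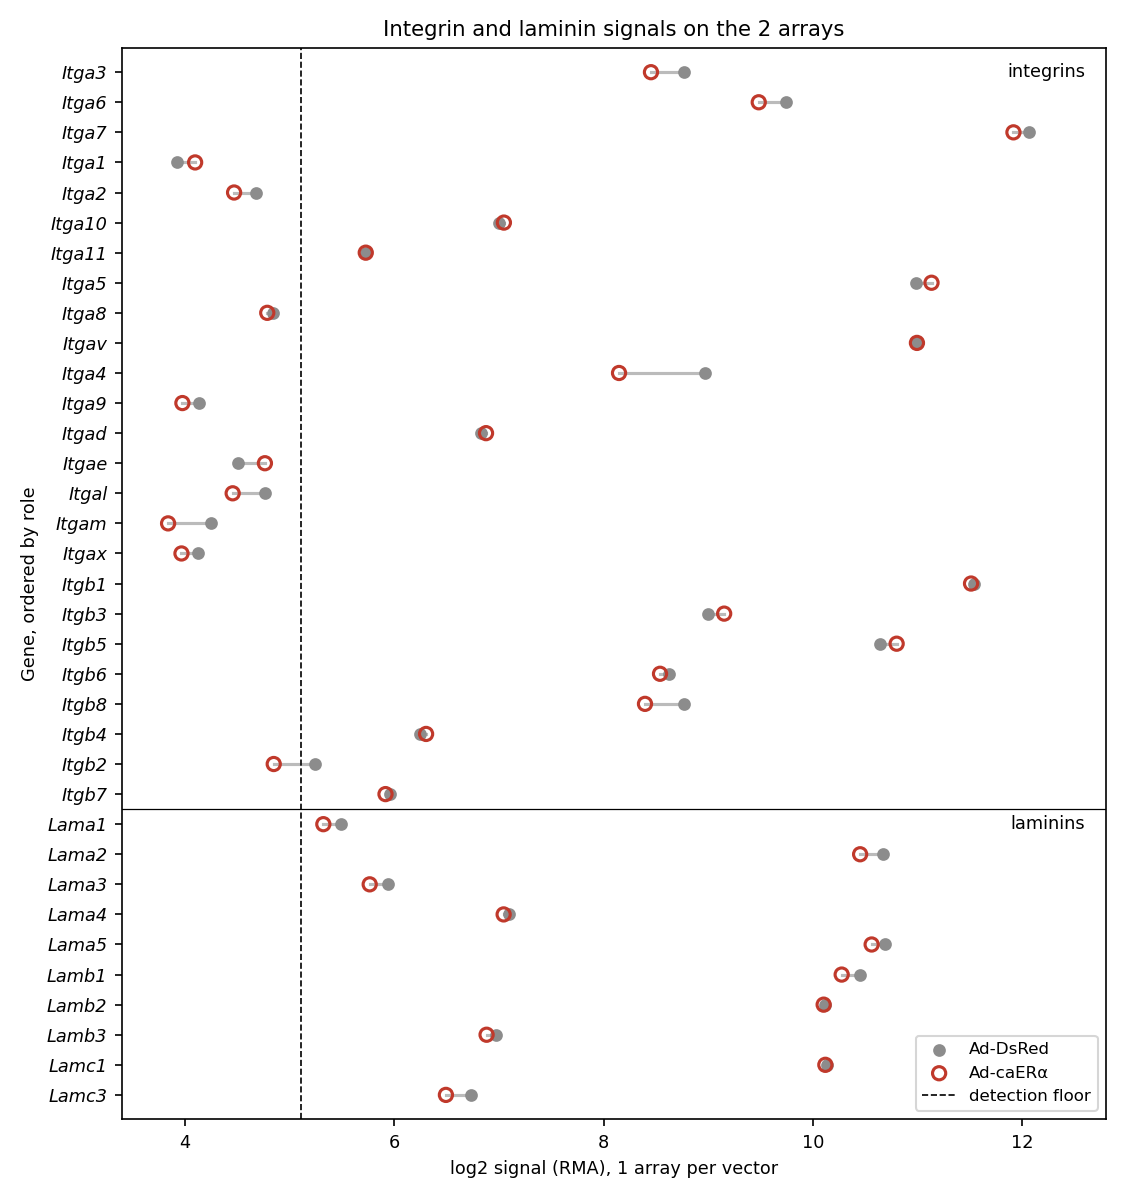
Log2 signal (horizontal axis) of all 35 integrin and laminin genes (vertical axis, ordered by role) on the Ad-DsRed array (filled points) and the Ad-caERα array (open points), with a dashed line at the detection floor of 5.11. Most pairs nearly coincide, the widest gap among measured genes is that of Itga4 (8.97 and 8.15), and Itgb2 is the only gene whose 2 values lie on either side of the floor.

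The clearest member was Itga4, which encodes the α4 chain that binds VCAM-1 and fibronectin and pairs with the β1 or β7 chain. Its log2 signal was 8.97 with Ad-DsRed and 8.15 with Ad-caERα, a difference of -0.82 or 1.77-fold lower. Only 31 of the 13554 measured genes had a lower difference. Vcam1, which encodes its cell-surface ligand and was on the list of integrin ligands, was at 9.16 with Ad-DsRed and 8.23 with Ad-caERα, 1.91-fold lower. Both the receptor chain and this ligand were lower in the same culture, but both are extremes of their lists. Itga4 was the lowest of the 27 measured members and Vcam1 the lowest of the 32 measured integrin ligands. Among other ligands of α4, fibronectin, encoded by Fn1, was at 13.44 and 13.34. The junctional adhesion molecule Jam2 was at 11.73 and 11.57, and Madcam1 was below the floor. On the same list of integrin ligands the thrombospondins went the other way, Thbs1 at 12.35 and 12.76 and Thbs2 at 10.32 and 11.68. The partner chains of α4 differed far less than Itga4: Itgb1 was at 11.54 and 11.51, and Itgb7 at 5.96 and 5.92. Itga9, the α chain closest in kind to α4, was below the floor on both arrays.

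The 3 laminin-binding α chains were all slightly lower in Ad-caERα, and none of them by 1.5-fold. Itga7, the main laminin-binding integrin chain of mature muscle, had a signal of 12.06 with Ad-DsRed and 11.92 with Ad-caERα, a difference of -0.15. Itga6, which serves in myoblasts and many epithelia, was at 9.74 and 9.48, a difference of -0.26. Itga3, a receptor for the laminins that contain the α3 or α5 chain, was at 8.77 and 8.45, a difference of -0.32. Of all measured genes, 6.85% had a lower difference than Itga3, 10.6% than Itga6 and 23.1% than Itga7, so none of the 3 is far out in the distribution. Itgb4, whose product pairs with the α6 chain in the hemidesmosomes of epithelia, was at 6.25 and 6.30.

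Among the integrins that read the RGD motif of fibronectin and vitronectin, differences went both ways, and the largest in size was the decrease of Itgb8. Itga5, the α chain of the classical fibronectin receptor, was at 10.99 with Ad-DsRed and 11.13 with Ad-caERα, a difference of 0.15. Itgav, the α chain shared by the vitronectin receptors and the activators of latent TGF-β, was at 10.99 on both arrays. Its difference of 0.0085 turned to -0.0099 and -0.010 after a loess correction and after renewed quantile normalization, so it has no direction. The β chains that join αV split. Itgb5 was at 10.64 and 10.80 (0.16) and Itgb3 at 9.00 and 9.15 (0.16), the highest differences among measured members. Of all measured genes, 75.6% had a lower difference than Itga5, 76.7% than Itgb3 and 77.2% than Itgb5, so these 3 are not far out. Itgb6 was at 8.63 and 8.54 (-0.090), while Itgb8, which with αV holds and activates latent TGF-β, was at 8.77 and 8.40 (-0.37), or 1.30-fold lower. Itga8, the remaining α chain of this group within the symbol rule, was below the floor.

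Of the 4 collagen-binding α chains 2 were measured, and neither differed by as much as 0.05. Itga10 was at 7.00 with Ad-DsRed and 7.05 with Ad-caERα. Itga11 was at 5.73 on both arrays with equal deposited values, as were 140 of the 13554 measured genes. Its sign changed with the scaling, from -0.0017 after centring to 0.077 after the loess correction. Itga1 and Itga2, the other 2 of this group, stayed below the floor.

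Leukocyte integrins were near or below the floor, apart from the brighter probe set of Itgad. Itgb2, the β chain common to the leukocyte-specific integrins, was at 5.24 with Ad-DsRed and 4.85 with Ad-caERα. The second value lies below the floor, so the gene was at least 1.10-fold lower and counts as measured only through the Ad-DsRed array. Itgal, Itgam, Itgax and Itgae, α chains of lymphoid and myeloid cells, did not reach the floor on either array. Itgad gave 6.83 and 6.88 from its brighter probe set, but 4.73 and 4.53 from its other probe set, so its detection rests on 1 of 2 probe sets that disagree. The difference was 0.049 from the brighter probe set and -0.075 from the mean of both, so it has no direction. Itgb7, at 5.96 and 5.92, lay within 1 log2 unit of the floor. Its difference of -0.046 became 0.017 after the loess correction.

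**Figure D2:**
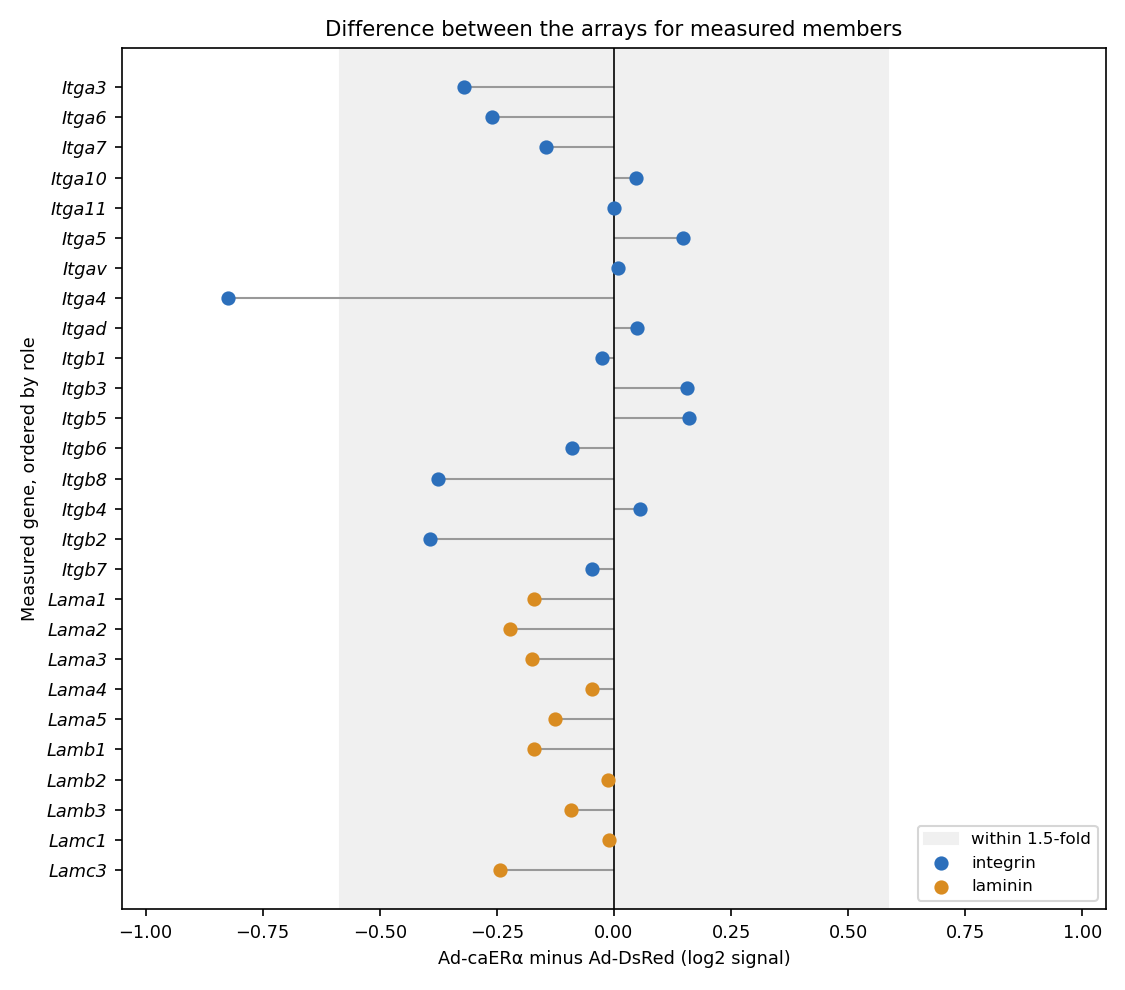
Difference between the arrays (horizontal axis, Ad-caERα minus Ad-DsRed, log2 signal) for the 27 measured members, ordered by role, with integrins and laminins in separate colours and the range within 1.5-fold shaded. Itga4, at -0.82, is the only point outside the shaded range, and all 10 laminin points lie to the left of 0, between -0.24 and -0.012. Itgb2 is drawn at its deposited difference of -0.39, which is not a measured fold because its Ad-caERα value lies below the floor.

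All 10 laminin differences were below 0 by small amounts, from -0.24 to -0.012, beside 48.8% below 0 among all measured genes. None reached 1.5-fold. Only Lamc3 and, barely, Lama2 were larger in size than 0.22, the SD over the receptor probe sets. Lamb2 and Lamc1, at -0.012 each, were far smaller in size than 0.13, the SD between probe sets that share a gene. Lama2, the α chain of the laminin of adult muscle fibres, was at 10.67 with Ad-DsRed and 10.45 with Ad-caERα, a difference of -0.22. Lama5, an α chain widespread in adult basement membranes, was at 10.69 and 10.56, a difference of -0.13. Lama4, found around vessels and at the neuromuscular junction, was at 7.09 and 7.05. Lama1, an α chain of early embryos, was at 5.49 and 5.32, and Lama3, an α chain of epithelia, at 5.94 and 5.77. These last 2 are dim and lie within 1 log2 unit of the floor, where RMA compresses differences. A loess correction brought Lama1 from -0.17 to -0.068 and Lama3 from -0.18 to -0.11.

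The β and γ chains had the same sign. Lamb1, the common β chain, was at 10.45 with Ad-DsRed and 10.28 with Ad-caERα, a difference of -0.17. Lamb2, the β chain of the synaptic basement membrane, was at 10.12 and 10.10, and Lamc1, the γ chain of most laminins, at 10.13 and 10.12. The differences of Lamb2 and Lamc1 were -0.012 each. Lamb3, an epithelial β chain, was at 6.97 and 6.88. Lamc3 had the lowest laminin difference, -0.24, at 6.74 and 6.49. Thus the chains that together make the laminin of adult muscle ran from -0.22 in Lama2 to -0.012 in Lamc1. After a loess correction the laminin differences ran from -0.24 to -0.028, and after renewed quantile normalization from -0.25 to -0.027. The remaining settings could hardly alter them.

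**Figure D3:**
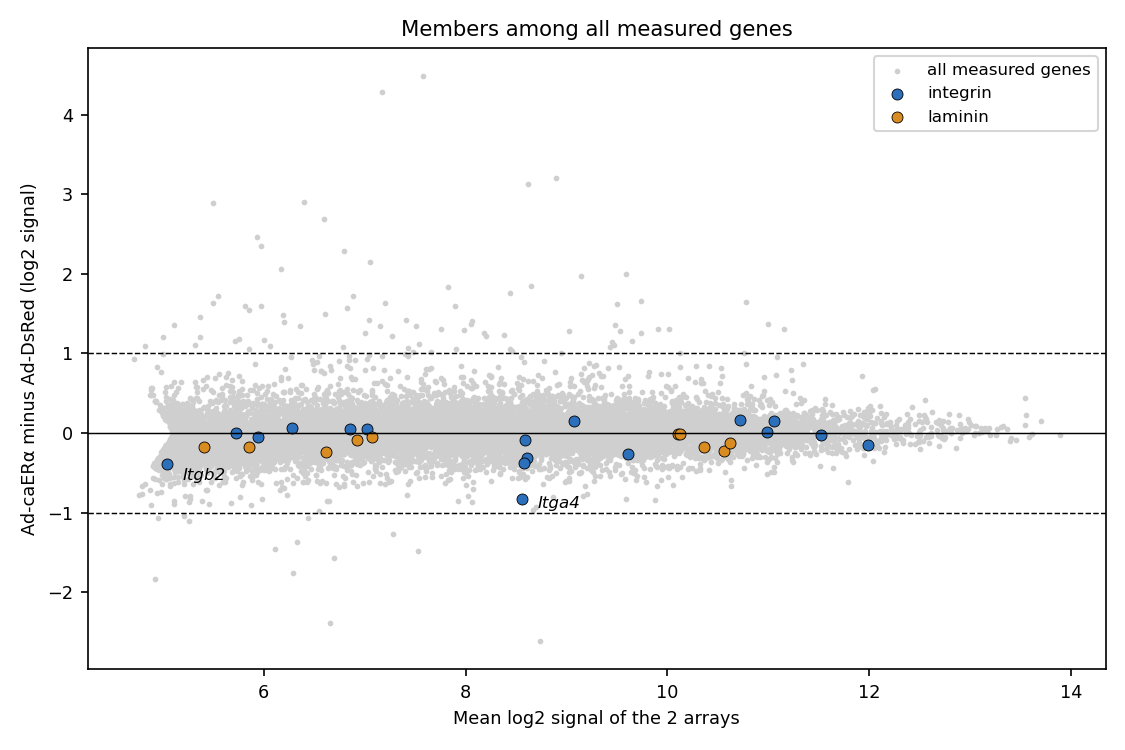
Difference between the arrays (vertical axis, Ad-caERα minus Ad-DsRed, log2 signal) against the mean log2 signal of both arrays (horizontal axis) for all 13554 measured genes (grey) with integrins and laminins coloured and dashed lines at 2-fold. All 27 members lie between the dashed lines, Itga4 nearest to the lower one, and most lie within the grey band of other genes.

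The stretch before the start of transcription is shown for the 2 integrins with the lowest differences measured on both arrays (Itga4 and Itgb8) and the one with the highest (Itgb5), and for Lama2 and Lamb1, the lowest of the laminins found in RefSeq's promoter table. The table is on build GRCm38.p6 and held 22 of the 35 genes, and each window is 250 bases long. Capitals mark GC boxes (GGGCGG, bound by Sp1 factors) and E-boxes (CANNTG, bound by myogenic and other helix-loop-helix factors) on either strand, and each sequence runs 5′ to 3′ on the gene's own strand. Itga4 is at chr2:79255176-79255425 on the plus strand, Itgb8 at chr12:119238277-119238526 on the minus strand and Itgb5 at chr16:33829415-33829664 on the plus strand. Lama2 is at chr10:27616943-27617192 on the minus strand and Lamb1 at chr12:31265043-31265292 on the plus strand.
Itga4: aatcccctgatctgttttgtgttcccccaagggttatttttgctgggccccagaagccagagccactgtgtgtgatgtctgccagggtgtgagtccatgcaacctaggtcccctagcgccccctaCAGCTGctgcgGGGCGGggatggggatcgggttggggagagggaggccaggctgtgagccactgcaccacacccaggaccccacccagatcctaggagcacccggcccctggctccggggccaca
Itgb8: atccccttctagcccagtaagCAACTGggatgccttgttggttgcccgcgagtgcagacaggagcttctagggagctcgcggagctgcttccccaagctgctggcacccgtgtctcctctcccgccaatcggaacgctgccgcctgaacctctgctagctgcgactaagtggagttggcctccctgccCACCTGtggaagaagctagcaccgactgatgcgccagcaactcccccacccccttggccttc
Itgb5: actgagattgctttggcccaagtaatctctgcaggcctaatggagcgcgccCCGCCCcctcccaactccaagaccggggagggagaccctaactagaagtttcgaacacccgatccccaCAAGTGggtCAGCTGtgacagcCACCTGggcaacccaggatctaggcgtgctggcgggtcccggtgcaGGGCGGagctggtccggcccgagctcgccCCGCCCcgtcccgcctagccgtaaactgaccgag
Lama2: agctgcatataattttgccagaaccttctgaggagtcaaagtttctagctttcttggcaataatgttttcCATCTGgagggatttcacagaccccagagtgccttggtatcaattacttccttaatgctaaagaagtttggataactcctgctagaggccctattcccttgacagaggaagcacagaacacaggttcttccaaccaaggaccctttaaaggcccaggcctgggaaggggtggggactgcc
Lamb1: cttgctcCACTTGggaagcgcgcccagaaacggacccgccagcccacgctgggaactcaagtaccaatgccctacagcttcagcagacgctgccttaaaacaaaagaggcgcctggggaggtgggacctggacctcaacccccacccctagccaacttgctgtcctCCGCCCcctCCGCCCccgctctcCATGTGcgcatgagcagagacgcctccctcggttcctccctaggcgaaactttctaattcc

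Motifs were searched as exact letters on both strands of these windows. The full estrogen response element, GGTCA and TGACC with any 3 bases between them, was in 0 of the 22 genes with a window and in 0.0639% of the 32851 windows of all genes. Its half-site in the form AGGTCA was also in 0 of the 22, beside 14% of all windows. The 2 searches can overlap, since a full element preceded by A holds the half-site. A GC box stood before 8 of the 22 genes, in 9 of their 25 windows, beside 32.7% of all windows. There was 1 in the Itga4 window, 3 in Itgb5, 2 in Lamb1 and 0 in Itgb8 and Lama2. An E-box stood before 17 of the 22, in 20 of their 25 windows, beside 66.2% of all windows. There was 1 each in Itga4 and Lama2, 2 each in Itgb8 and Lamb1 and 3 in Itgb5. The AP-1 site TGACTCA was before 1 gene, Itgax, in 1 of the 25 windows, beside 4.46% of all windows. Some genes have more than 1 start in the table, and a match or its absence describes these letters only.

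Other components of the basement membrane were also mostly lower. Of 29 such genes on the array 25 were measured, 18 below 0 and 7 above, with a median of -0.14 and 0 past 2-fold. After the loess correction that median was -0.076, nearer to 0. Nid1, nidogen, which joins laminin to collagen IV, was at 11.40 with Ad-DsRed and 11.07 with Ad-caERα, and Nid2 at 8.76 and 8.47. Hspg2, perlecan, was at 12.20 and 12.01. The choice of these 3 was made with their values in view. The lowest were Frem2, an extracellular matrix protein of embryonic epithelia, at least 1.40-fold lower, and Col18a1 at 8.16 and 7.71. The highest were Fbln2, fibulin-2, at 9.69 and 10.19, and Ntn4, a netrin that binds laminin γ chains, at 9.13 and 9.39. The collagen IV chains of the main network stayed close, with Col4a1 at 8.36 and 8.44 and Col4a2 at 8.45 and 8.41.

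Other ligands of integrins had a median of 0.043 over 32 measured genes of 43 on the array, 18 of them above 0. Thbs2, a thrombospondin, passed 2-fold upwards (0.59% of measured genes did so), at 10.32 with Ad-DsRed and 11.68 with Ad-caERα. Col6a3, a chain of the collagen VI microfibrils around muscle fibres, was next at 10.12 and 10.94. At the other end, after Vcam1, stood Icam1, the ligand of the leukocyte β2 integrins, at 5.95 and 5.69. The ligands thus ran from Vcam1, 1.91-fold lower, to Thbs2, 2.58-fold higher.

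The adaptors that join integrins to actin and to signalling were listed together with the surface proteins Cd151, Cd9, Cd81 and Cd47 and with Caprin1. This list had a median of 0.0 over 43 measured genes of 45, with 21 above 0 and 21 below. Ptk2b, the focal adhesion kinase relative PYK2, was the highest at 8.79 with Ad-DsRed and 9.67 with Ad-caERα, 1.84-fold. Cd151, a tetraspanin that binds the laminin-binding integrins, followed at 11.09 and 11.46. Itgb1bp2, melusin, a muscle protein that binds the β1 tail, was the lowest at 8.19 and 7.74, and Tln2, the talin of mature muscle attachments, next at 9.35 and 9.08. Ilk, integrin-linked kinase, was at 11.33 and 11.53, and Tln1, the widespread talin, at 11.31 and 11.37; both were picked with their values in view.

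The next list held other laminin receptors, proteins of the dystrophin complex, Musk and the enzymes that glycosylate dystroglycan. Its median was 0.017 over 30 measured genes of 30, with 16 above 0 and 0 past 2-fold. The median turned to -0.011 after loess and -0.018 after renewed quantile normalization, so the pooled list has no direction. Its parts differed, a split made with the values in view. Most glycosylation enzymes lay above 0 and most proteins of the dystrophin complex below 0. Dag1, which encodes dystroglycan and was likewise picked with its values in view, was at 11.37 with Ad-DsRed and 11.23 with Ad-caERα. Pomt1, which starts the mannose chain on dystroglycan, was the highest at 8.99 and 9.55, and Dpm3, a subunit of the enzyme that supplies its mannose, followed at 8.07 and 8.48. The lowest were the syntrophins of the dystrophin complex, Sntb1, at 10.47 and 10.03, and Sntb2, at 9.06 and 8.74.

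**Figure D4:**
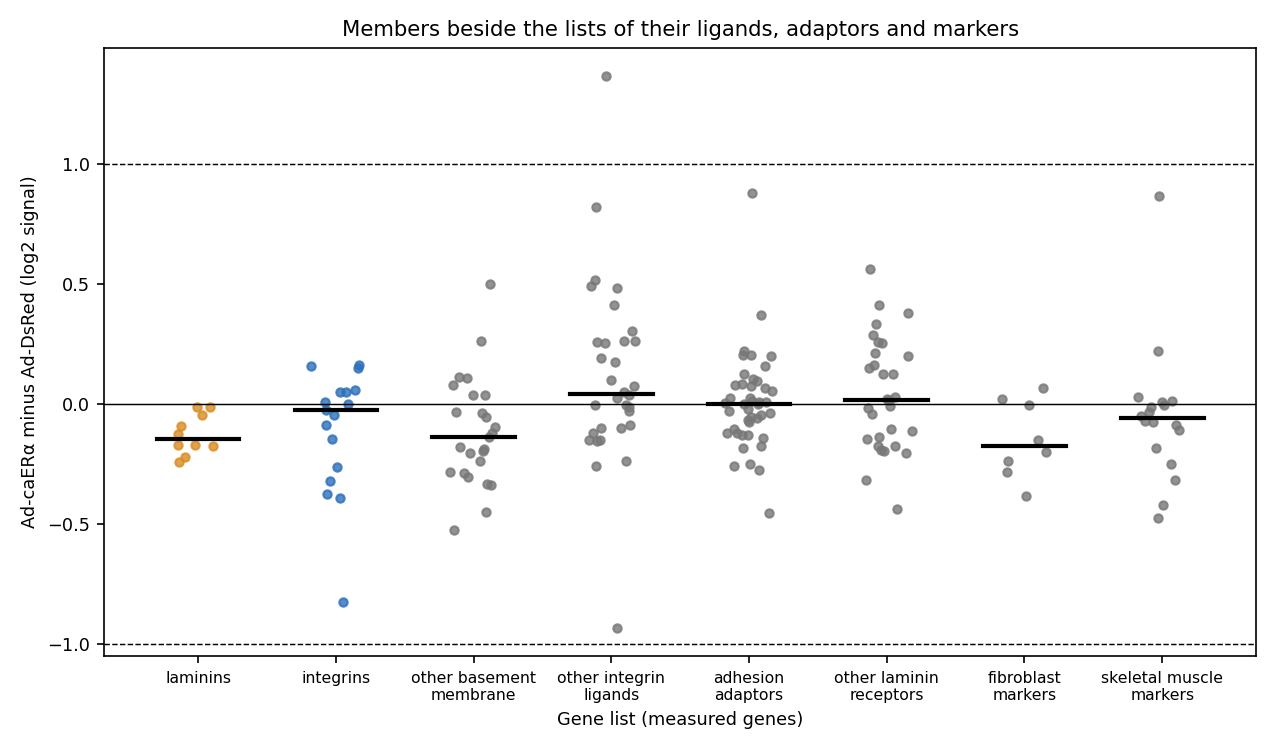
Difference between the arrays (vertical axis, Ad-caERα minus Ad-DsRed, log2 signal) for measured genes of each list (horizontal axis), 1 point per gene, with a bar at each list's median and dashed lines at 2-fold. The medians of the laminins (-0.15), the other basement membrane components (-0.14) and the fibroblast markers (-0.18) lie below 0, while those of the adaptors and the other laminin receptors lie close to it.

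Markers of the labelled cell type were present. All 18 skeletal muscle markers were measured, 13 below 0, with a median of -0.061 and only myoglobin, Mb, past 1.5-fold, at 10.91 with Ad-DsRed and 11.78 with Ad-caERα. Fibroblast markers were also mostly lower: 8 of 10 were measured, 6 of the 8 were below 0, the median was -0.18, and the lowest were Pdgfrb at 10.07 and 9.69 and Pdgfra at 7.25 and 6.96. Their single signals ran from 4.39 to 13.11 in Ad-DsRed and from 4.20 to 13.18 in Ad-caERα, and the log2 of their summed signal, to which Dcn adds most, was 13.70 and 13.68. Their part in the laminin differences was not tested.

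Of 14 leukocyte markers 6 were measured (median -0.013), with single signals up to 6.53 and 6.82 and a log2 summed signal of 8.93 and 8.98. Ptprc, Csf1r, Adgre1, Lyz2 and Spi1, which define leukocytes and macrophages, were below the floor on both arrays, as most leukocyte integrins were. The measured ones were Cd14 at 6.53 and 6.82, Cd68 at 6.38 and 6.62, and the dimmer Laptm5, Coro1a, Cd3e and Ncf1. Epithelial markers (6 of 10 measured, median -0.091), endothelial markers (5 of 10, median -0.13) and platelet markers (3 of 6, median 0.040) were mostly dim, and Epcam, Krt5, Pecam1, Cdh5, Kdr and Pf4 did not reach the floor on either array. Of 6 Schwann cell markers 4 were measured (median -0.065), of which Erbb3, which muscle also expresses, was at 9.13 and 8.59. No marker passed 2-fold. The medians of the leukocyte, epithelial and Schwann cell lists turned sign under other settings.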

How the data were processed

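Total RNA (150 ng) of 2 cultures, 1 per vector, was hybridised to Affymetrix arrays, and groups came from the sample titles. The authors deposited 1 log2 signal for each probe set and array, made with Affymetrix Expression Console and RMA, per the submitters' processing notes (versions: not given in the sources used here). Between weak signals RMA compresses differences. The table held 35556 probe sets, with medians of 6.05 (Ad-DsRed) and 6.02 (Ad-caERα). Platform annotation named 1 gene for 21789 probe sets, several for 1621 and none for 12146. Gene IDs of all 35 members matched RefSeq's GRCm38.p6 table, with 0 symbols changed. Detection calls and probe-level signals were not analysed here, and precision is limited by the number of arrays.

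The members, gene lists and rules were chosen with earlier results of these data known. Every member is accounted for, and in each list of ligands, adaptors, receptors, basement membrane genes or relatives the 2 highest and 2 lowest measured genes and any gene past 2-fold are named; from the marker lists only single genes are. Where the dimmer value lay below the floor, the fold is the brighter signal over the floor. As yardsticks, the difference had an SD of 0.22 over the receptor probe sets, 0.12 for ribosomal proteins (53 genes) and 0.13 between probe sets that share a gene (770 genes). Counting was tested on simulated data. Alternatives covered floor, scaling, probe set rule, fold threshold and summary. Python 3.11.15, numpy 2.4.6, pandas 2.3.3, statsmodels 0.14.6 and matplotlib 3.10.9 were used.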

Additional observations from a re-analysis of the deposited data

How the results depend on the processing

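No paired analysis was possible because there is a single array for either vector, which also leaves no replicate to omit. Under the other floors, the scalings, the averaging of probe sets and the raising of dim values to the floor, 0 members passed 2-fold and Itga4 alone passed 1.5-fold, with differences from -0.86 to -0.82. The laminin median ran from -0.15 to -0.10 and the integrin median from -0.11, as a mean over members, to -0.0087 with either higher floor. Between 6 and 9 measured members lay above 0, 0 of them laminins, over 22 to 35 members. Floors only choose genes, and centring, raising dim values and averaging probe sets leave most values as they are, so 210 of 352 recalculated differences of single genes equalled the reported ones. Under loess and renewed quantile normalization, which alter nearly every gene, 91 of 92 moved by less than 0.13, the SD between probe sets of a gene, used because replicates are lacking. The exception was Itgb2, -0.26 after loess; with dim values raised to the floor it was -0.13. Averaging probe sets turned Itgad to -0.075 and the integrin median to -0.046. With the 2 higher floors, which nearly coincide, 54.7% of all measured genes lay above 0, and the median over all was 0.024. List medians turned sign for relatives outside the rule (0.049 with higher floors), the other laminin receptors (-0.011 after loess, -0.018 after quantile normalization) and leukocyte (0.27 with higher floors, 0.094 and 0.045 after the scalings), epithelial (0.12 and, after loess, 0.013) and Schwann cell markers (0.044 and 0.0014 after the scalings). The Schwann cell median was -0.54 with higher floors. The basement membrane median kept its sign, from -0.19 without a floor to -0.076 after loess.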

Other observations

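A further list held relatives of both families and genes merely named after them, all with symbols outside the rule. Several, such as Itgb1bp2, Ntn4 and Hspg2, are also on the adaptor or basement membrane lists, so the lists are not independent. It gave 15 measured genes of 16 on the array, with a median difference of -0.072, 9 of them below 0 and 0 past 2-fold. With either higher floor the median was 0.049, so the list has no stable direction. Itgb2l, a gene akin to the leukocyte β2 chain, was at least 1.20-fold lower, with a signal of 5.37 in Ad-DsRed and one below the floor in Ad-caERα. Itgb3bp, which despite its name also encodes a centromere protein, was the highest at 6.14 and 6.49. Itga2b, the platelet α chain, was at 6.28 and 6.20, and Itgbl1, a secreted protein with integrin β-like repeats, at 5.81 and 5.54. Itgb1bp2 and Ntn4, the lowest and the second highest of the list, are given above.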
